A study of Arabidopsis thaliana with 12 samples.

Results

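XTH18, XTH19 and XTH32 encode members of the xyloglucan endotransglucosylase/hydrolase family of Arabidopsis thaliana, and were followed in hypocotyls, the seedling stems, of 2 ages without and with auxin. They were taken as the probe sets whose array annotation holds exactly 1 gene with one of these symbols, which gave 3 probe sets, 1 for each gene, among 13513 probe sets with 1 gene and 22746 non-control probe sets in all. XTH18 (locus AT4G30280, probe set 253628_at) and XTH19 (AT4G30290, 253608_at) are adjacent protein-coding genes on chromosome 4, and XTH32 (AT2G36870, 263841_at) lies on chromosome 2. All plants were of ecotype Col-0, with no transgene or mutation given, and were raised on full-strength MS medium. The 4 groups were 7-day-old untreated, 7-day-old auxin-treated, 35-day-old untreated and 35-day-old auxin-treated hypocotyls, with 3 arrays each, labelled as biological replicates. The auxin lasted 1 day; which auxin was given, at what dose, and whether the untreated plants were held for the same day is not stated. The series asks how the capacity of hypocotyls to form callus changes with age.

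Xyloglucan is the main hemicellulose of the primary wall in plants such as Arabidopsis, and it coats and tethers cellulose microfibrils. XTH enzymes cut a xyloglucan chain and join the new end either to another xyloglucan chain, which is transglucosylation, or to water, which is hydrolysis, so they can loosen, rebuild or reinforce the wall while cells grow. XTH18 and XTH19 belong with XTH17 and XTH20 to a closely related subgroup that is best known from roots, where XTH19 is a known auxin-raised gene, and XTH19 and XTH20 are also known from the rejoining of cut Arabidopsis stems. XTH32 belongs with XTH31 to a clade whose members are predicted to act mainly as hydrolases.

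The values are log2 RMA values, and each probe set was centred on its median over the 12 arrays. A value of 1 is thus a doubling over that gene's own median, and neither the absolute level of a gene nor its level against another gene can be read. For the same reason the presence of a tissue cannot be checked from its markers. Of 24 marker genes listed for xylem, phloem, cambium, green tissue and root, 4 have a probe set of their own in the annotation used. None of them marks the hypocotyl. That annotation names no gene for 8730 of the 22746 non-control probe sets. A listed gene counted as unmeasured may therefore still be on the array. The replicates limit the precision, and fewer cells of a type and less RNA per cell cannot be told apart in such bulk tissue. Replicates 1 and 2 of both untreated groups stood apart in the bacterial spike-in control bioC, at −1.43 to −1.61, against 0.48 and 0.70 on the third replicates and −0.20 to 0.20 after auxin. A control for large-subunit ribosomal RNA lay at −2.56 to −1.06 on untreated and at 1.06 to 2.50 on auxin arrays. For most results the values without these 4 arrays, called the low-bioC arrays, stand below beside the full ones. Each untreated group then holds 1 array, which is assumed to vary like the others. The ribosomal RNA control separated all untreated from all auxin arrays, also without the low-bioC ones. Its part in the auxin results therefore cannot be told apart from that of auxin. Whether the bioC signal had a part in the results was not tested.

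Auxin raised XTH18 at both ages, and much more in young than in mature hypocotyls. In untreated 7-day hypocotyls the XTH18 values were −1.85, −2.18 and −2.01 on replicates 1 to 3, and after auxin they were 2.26, 2.37 and 2.00. In 35-day hypocotyls they were −0.77, −0.48 and −0.94 without auxin and 0.81, 1.18 and 0.48 with it. The arrays of each group stayed together and no 2 groups overlapped: XTH18 was lowest in untreated young, next in untreated mature, then in auxin-treated mature and highest in auxin-treated young hypocotyls. Groups without overlap were common, in 64.5% of all probe sets for auxin at 7 days, 64.5% for auxin at 35 days, 53.4% for age without and 40.7% for age with auxin. The closest neighbours in this order, the 2 auxin groups, were 0.82 apart between their nearest arrays, more than the range of 0.70 within the wider of them.

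With auxin XTH18 was 18.7-fold higher in young hypocotyls (4.23 ± 0.17 on the log2 scale, an estimate with its SE from 3 arrays per group, limma adjusted p = 5.3e-11). It ranked 104 among 22746 probe sets ordered from the largest rise. In mature hypocotyls it was 2.94-fold higher (1.55 ± 0.17, limma adjusted p = 1.7e-06) and ranked 1379. Calls were common in these comparisons, with 59.1% of all probe sets called in young hypocotyls (32.7% higher, 26.4% lower) and 59.9% in mature ones (31.8% higher, 28.1% lower), so that the size and the rank say more of XTH18 than the call. Without the 4 low-bioC arrays the log2 changes were 4.22 ± 0.24 and 1.76 ± 0.24.

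Age moved XTH18 in opposite directions without and with auxin. Untreated mature hypocotyls held 2.43-fold more XTH18 signal than untreated young ones (1.28 ± 0.17, n = 3 per group, limma adjusted p = 2.2e-05), where 45.7% of probe sets were called, 22.7% higher and 22.9% lower. After auxin the mature hypocotyls held 2.62-fold less (−1.39 ± 0.17, limma adjusted p = 2.4e-05), where 27.3% were called, 14.2% higher and 13% lower. The first of these was 1.07 ± 0.30 without the low-bioC arrays (adjusted p = 0.0284); the second uses none of them.

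**Figure D1:**
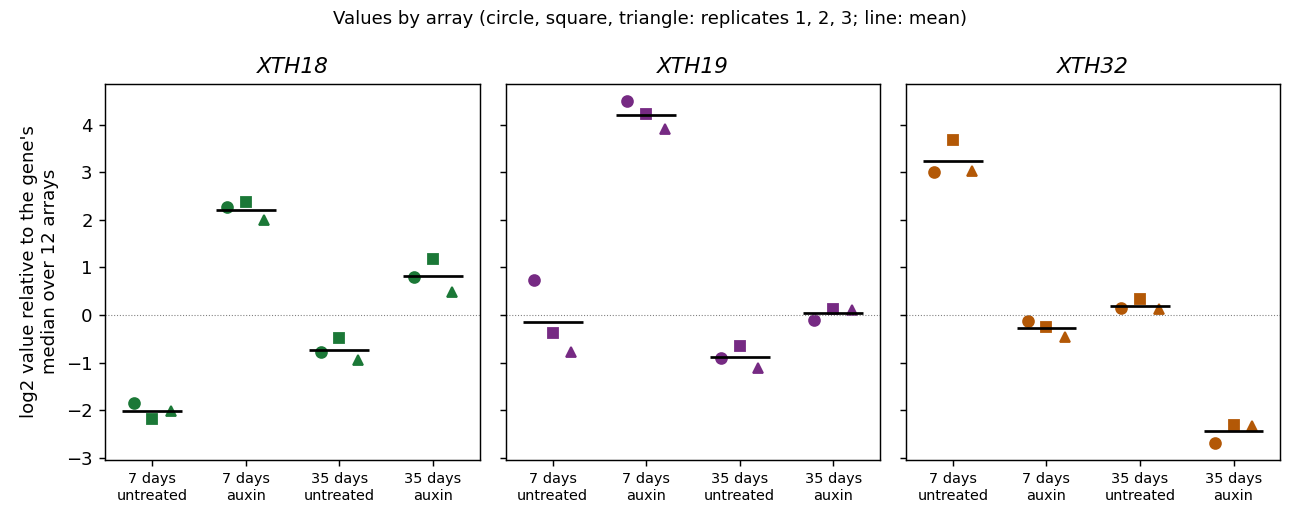
Log2 values of XTH18, XTH19 and XTH32 on each of the 12 arrays (vertical axis, relative to each gene's own median) in the 4 groups (horizontal axis), with replicates 1, 2 and 3 as circle, square and triangle and the group mean as a line. XTH18 and XTH19 are highest in auxin-treated 7-day hypocotyls (means 2.21 and 4.21), and XTH32 is highest in untreated 7-day hypocotyls (mean 3.24); heights cannot be compared between genes.

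XTH19 rose 20.4-fold with auxin in young and 1.90-fold in mature hypocotyls. In untreated 7-day hypocotyls the XTH19 values were 0.73, −0.37 and −0.78 on replicates 1 to 3, and after auxin they were 4.50, 4.22 and 3.91. In 35-day hypocotyls they were −0.89, −0.64 and −1.11 without auxin and −0.11, 0.13 and 0.11 with it. The auxin-treated young arrays thus stood alone, at least 3.19 above every other array, while the remaining groups lay close together.

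The untreated young group was the most scattered of the XTH19 groups, with an SD of 0.78 against 0.13 to 0.29 in the others, and replicate 1 was its high array. This group overlapped with the auxin-treated mature one, from which its mean differed by 0.18, and with the untreated mature one, so these neighbours in the order did not differ beyond their spread. The untreated and auxin-treated mature groups did not overlap and were 0.53 apart.

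With auxin XTH19 was 20.4-fold higher in young hypocotyls (4.35 ± 0.29, n = 3 per group, limma adjusted p = 8.9e-09), rank 93 among all rises. In mature hypocotyls it was 1.90-fold higher (0.93 ± 0.29, limma adjusted p = 0.0121), rank 2981. Without the low-bioC arrays, a set that includes the high replicate, the young rise was larger, 31.8-fold (4.99 ± 0.20), and the mature one 2.23-fold (1.16 ± 0.20).

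After auxin XTH19 was 17.97-fold lower in mature than in young hypocotyls (−4.17 ± 0.29, n = 3 per group, limma adjusted p = 9.6e-08); this was rank 32 among 22746 probe sets ordered from the largest fall with age after auxin. Without auxin the age difference was −0.74 ± 0.29 (limma adjusted p = 0.0484), just past the threshold and with overlapping groups. That call was lost when any single array except replicate 3 of the untreated young group was left out: without replicate 1 of the untreated young group the difference was −0.31 ± 0.18 (adjusted p = 0.21), and without the 4 low-bioC arrays −0.33 ± 0.25 (adjusted p = 0.431).

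The 2 neighbouring genes did not follow one course through the 4 groups. Within each array the XTH19 value was subtracted from that of XTH18; since both are centred, only changes of this difference between groups have a meaning. In young hypocotyls it was −2.58, −1.81 and −1.23 on the untreated and −2.24, −1.84 and −1.92 on the auxin arrays, so that auxin moved it by −0.12 (means −1.875 ± 0.676 and −1.999 ± 0.211 SD, two-sided exact permutation p = 0.8). In mature hypocotyls it was 0.12, 0.16 and 0.17 without and 0.92, 1.05 and 0.37 with auxin. The mature shift of 0.63 separated all 3 auxin from all 3 untreated arrays, at an exact permutation p = 0.1, the smallest that 3 arrays against 3 allow.

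The larger change of the XTH18 minus XTH19 difference was between ages: all 6 values were negative in young and all 6 positive in mature hypocotyls. Over the 12 arrays the Pearson correlation of both genes was 0.78, a description that the auxin-treated young arrays dominate. Both probe sets carry the suffix that Affymetrix gives to sets designed for 1 gene; probe sequences were not used here, so binding of one transcript to the probes of the other was not tested.

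XTH32 went the other way and fell with auxin at both ages and with age in both treatments. In untreated 7-day hypocotyls the XTH32 values were 3.01, 3.68 and 3.03 on replicates 1 to 3, and after auxin they were −0.12, −0.24 and −0.46. In 35-day hypocotyls they were 0.14, 0.34 and 0.12 without auxin and −2.68, −2.31 and −2.34 with it. No 2 groups overlapped. XTH32 was highest in untreated young hypocotyls, followed by untreated mature and auxin-treated young ones, which lay 0.24 apart between their nearest arrays, and lowest in auxin-treated mature ones. That gap of 0.24 is smaller than the range of 0.34 within the auxin-treated young group, whereas the other neighbours were 2.68 and 1.85 apart.

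With auxin XTH32 was 11.4-fold lower in young hypocotyls (−3.51 ± 0.17, n = 3 per group, limma adjusted p = 2.9e-10), rank 390 from the largest fall. In mature ones it was 6.25-fold lower (−2.64 ± 0.17, limma adjusted p = 5.9e-09), rank 529. Without the low-bioC arrays these were −3.30 ± 0.18 and −2.56 ± 0.18. The fall in young hypocotyls was −2.81 with the deposited values quantile-normalised again.

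XTH32 was also lower with age in both treatments, as was XTH16 of the same family, described below. Untreated mature hypocotyls were 8.23-fold below untreated young ones (−3.04 ± 0.17, n = 3 per group, limma adjusted p = 4.7e-09), and auxin-treated mature ones 4.50-fold below auxin-treated young ones (−2.17 ± 0.17, limma adjusted p = 2.8e-07). Without the low-bioC arrays the first was −2.91 ± 0.22, and with quantile normalisation it was −2.25. From untreated young to auxin-treated mature hypocotyls the XTH32 mean fell by 5.68 on the log2 scale.

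Genes of green tissue fell with auxin as XTH32 did, but did not follow it through all 4 groups. LHCB4.2, a light-harvesting antenna protein, PRK, a Calvin cycle kinase, and PSAN, a photosystem I subunit, are the 3 measured of 6 listed green-tissue markers. All 3 fell with auxin at both ages, with medians of −7.71 in young and −6.06 in mature hypocotyls, where 26.4% and 28.1% of all probe sets were lower. All 3 were also lower with age without auxin (median −1.86), where 22.9% were lower. None was called between the ages after auxin (median −0.04), where 27.3% were called and XTH32 was 4.50-fold lower. Signal over background is unknown in centred values. Whether the markers were too dim after auxin to show an age difference therefore cannot be read. Without the low-bioC arrays all 3 kept their calls with auxin (−8.16 to −5.55) and with age (LHCB4.2 −1.05 ± 0.22, PRK −1.47 ± 0.22 and PSAN −1.41 ± 0.40). The group means of these 3 markers ran from 4.42 to 4.87 in untreated young, from 2.56 to 3.08 in untreated mature and from −3.41 to −2.55 in both auxin groups. Their part in the fall of XTH32 was not tested. EXPA7, a root hair expansin and the 1 measured of 5 root markers, was called in none of the 5 comparisons.

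The size of the auxin response depended on age for the neighbouring pair, and less firmly for XTH32. The mature response minus the young response was −2.67 ± 0.24 for XTH18 (n = 3 per group, limma adjusted p = 1.9e-06), so the mature rise was 6.37-fold smaller. For XTH19 it was −3.43 ± 0.40 (limma adjusted p = 2.0e-05), a 10.7-fold smaller rise, rank 60 from the lowest difference. In XTH32 it was 0.87 ± 0.23 (limma adjusted p = 0.0101), a 1.83-fold smaller fall. In this comparison 35% of probe sets were called, 17.5% in each direction, and it uses the same arrays as the comparisons above.

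Without the 4 low-bioC arrays the XTH18 and XTH19 differences were −2.46 ± 0.34 and −3.84 ± 0.29, both called. That of XTH32 was 0.74 ± 0.25 and no longer called (adjusted p = 0.0789), and with quantile normalisation it was 0.16 ± 0.20 (adjusted p = 0.613). The fall of XTH32 at each age kept its direction under both. Quantile normalisation acted here on centred values, so it evened the spread of deviations across arrays and not their intensities. Its part in the smaller XTH32 difference was not tested.

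**Figure D2:**
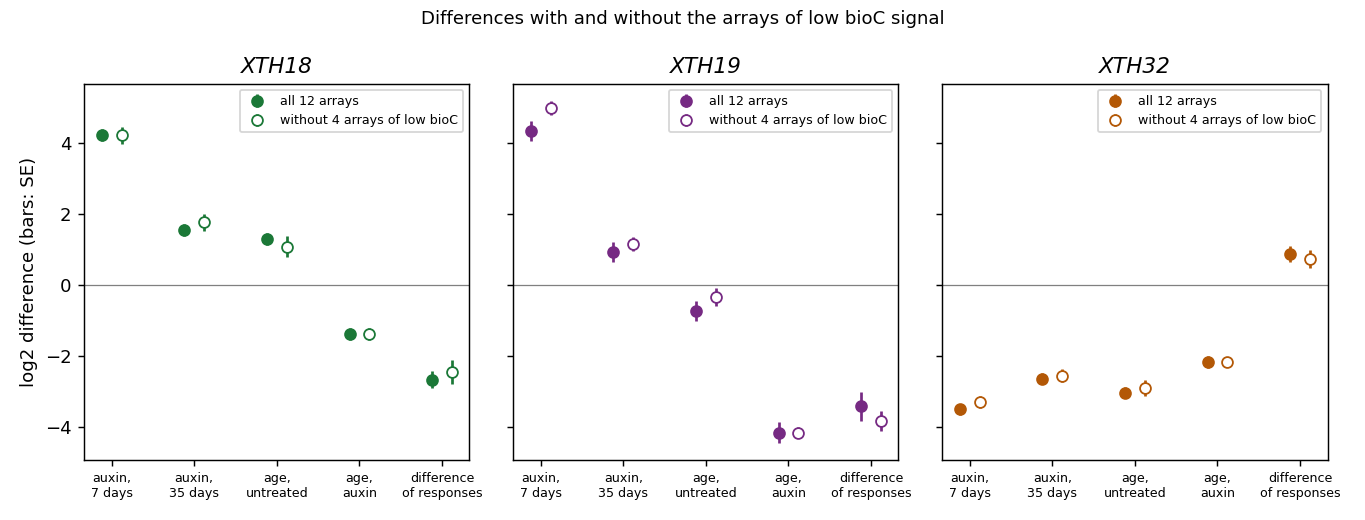
Log2 differences (vertical axis, with SE as bars) of XTH18, XTH19 and XTH32 in the 5 comparisons (horizontal axis), from all 12 arrays (filled) and without the 4 untreated low-bioC arrays (open). The largest shift is that of the XTH19 rise in 7-day hypocotyls, from 4.35 to 4.99; the age comparison with auxin uses none of the 4 arrays.

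The rest of the family was read from 33 listed XTH genes. Of these, 10 have a probe set of their own in the annotation used, the 3 above and another 7. Of these 7, 2 rose and 2 fell with auxin in young hypocotyls, and 4 rose and 1 fell in mature ones, with median log2 changes of −0.11 and 0.40 beside 0.02 and 0.06 over all probe sets. The share called, 4 and 5 of 7, is near the background of 59.1% and 59.9%. With age 2 of the 7 were higher and 1 lower without auxin, where 45.7% of all probe sets were called. After auxin 1 was higher and 2 lower, where 27.3% were called.

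XTH20, the relative of XTH18 and XTH19, rose many-fold at both ages. Its values were −1.70, −1.87 and −1.66 in untreated and 2.08, 2.06 and 2.07 in auxin-treated 7-day hypocotyls. At 35 days they were −1.71, −1.75 and −1.53 without and 2.31, 2.03 and 1.53 with auxin, so that the 2 untreated groups overlapped each other, as did the 2 auxin groups. It was 14.1-fold higher with auxin in young (3.81 ± 0.15, limma adjusted p = 4.8e-11) and 12.3-fold higher in mature hypocotyls (3.62 ± 0.15, limma adjusted p = 1.1e-10). The difference between its responses was −0.20 (95% interval −0.65 to 0.26, limma adjusted p = 0.535), against intervals of −3.19 to −2.16 for XTH18 and −4.30 to −2.55 for XTH19. The difference between genes was not itself tested. The XTH20 responses were 3.73 ± 0.24 and 3.49 ± 0.24 without the low-bioC arrays, and that of mature hypocotyls was 4.28 with quantile normalisation.

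XTH33, which is held in the plasma membrane, was raised mainly in young hypocotyls. It was 7.63-fold higher with auxin there (2.93 ± 0.19, limma adjusted p = 7.7e-09) and 1.64-fold higher in mature ones (0.71 ± 0.19, limma adjusted p = 0.00488), and the difference of −2.22 ± 0.27 was called (adjusted p = 2.5e-05). Without the low-bioC arrays its responses were 2.90 ± 0.26 and 1.04 ± 0.26, and their difference −1.86 ± 0.36. As for XTH18, age moved XTH33 up without auxin (0.72 ± 0.19, limma adjusted p = 0.00629) and down after it (−1.50 ± 0.19, limma adjusted p = 3.7e-05). The first of these was 0.37 ± 0.31 without the low-bioC arrays.

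XTH16 fell with auxin in young hypocotyls (−1.14 ± 0.21), by less without the low-bioC arrays (−0.78 ± 0.20) or with quantile normalisation (−0.59 ± 0.22, adjusted p = 0.0315), and rose in mature ones (0.66 ± 0.21, limma adjusted p = 0.0147). The rise was no longer called without replicate 3 of the untreated (0.40, adjusted p = 0.0747) or replicate 1 of the auxin-treated mature group (0.54, adjusted p = 0.0659), and was 1.18 ± 0.20 without the low-bioC arrays. The difference of its responses was 1.80 ± 0.30 (adjusted p = 3.5e-04). XTH16 was 7.98-fold lower in untreated mature than in untreated young hypocotyls (limma adjusted p = 5.7e-08). After auxin it was 2.29-fold lower in mature than in young hypocotyls (limma adjusted p = 6.6e-04). The first of these falls was 8.95-fold without the low-bioC arrays.

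EXGT-A3, also known as XTH27, fell with auxin by 0.62 ± 0.11 in young and by 1.13 ± 0.11 in mature hypocotyls on the log2 scale, and was the only other measured family member besides XTH32 lower at both ages. XTH29 rose in mature hypocotyls (0.40 ± 0.10, limma adjusted p = 0.00236), against −0.11 ± 0.10 in young ones. The differences between responses of −0.51 ± 0.15 for EXGT-A3 and 0.51 ± 0.14 for XTH29 were called with all arrays and not without the low-bioC ones (adjusted p = 0.253 and 0.113). EXGT-A3 also lost the call without replicate 2 of the auxin-treated young group (adjusted p = 0.0509). XTH21 and XTH26, both known from roots, were called in none of the 5 comparisons.

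**Figure D3:**
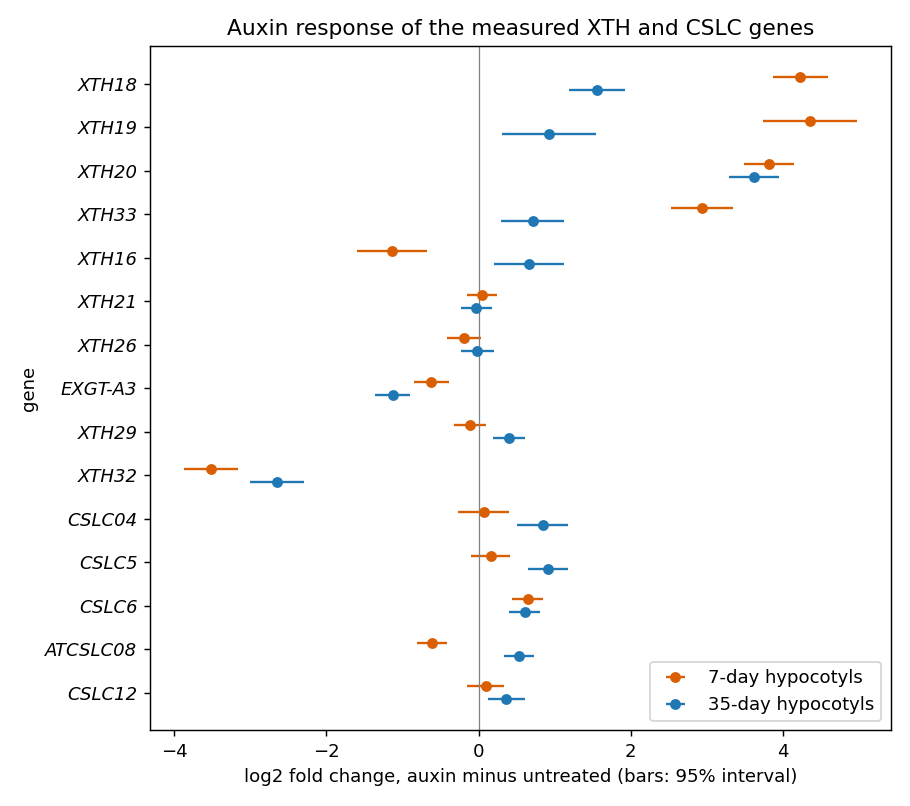
Log2 fold change with auxin (horizontal axis, bars are 95% intervals) of the 10 measured XTH genes and the 5 measured CSLC genes (vertical axis) in 7-day (orange) and 35-day (blue) hypocotyls. XTH18 and XTH19 rise by over 4 in young and by 1.55 and 0.93 in mature hypocotyls, XTH20 rises by 3.81 and 3.62, and XTH32 falls by 3.51 and 2.64.

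Of 18 listed genes that make or trim xyloglucan, the 5 with a probe set of their own in the annotation used are the CSLC genes. Their enzymes belong to the family that makes the glucan backbone of xyloglucan. With auxin 5 of 5 rose in mature hypocotyls (median 0.61), beside 31.8% of all probe sets higher. In young hypocotyls 1 rose, 1 fell and 3 were not called (median 0.10), where 32.7% of all probe sets were higher and 26.4% lower. CSLC5 changed by 0.91 ± 0.12 in mature (limma adjusted p = 1.2e-05) and by 0.16 ± 0.12 in young hypocotyls (adjusted p = 0.281), and CSLC04 by 0.84 ± 0.15 and 0.07 ± 0.15. CSLC6 rose at both ages, by 0.65 ± 0.09 in young and 0.61 ± 0.09 in mature hypocotyls (0.70 ± 0.12 and 0.69 ± 0.12 without the low-bioC arrays). ATCSLC08 fell in young (−0.62 ± 0.09) and rose in mature hypocotyls (0.53 ± 0.09), and CSLC12 rose in mature ones (0.37 ± 0.11).

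For 3 of the CSLC genes the response was higher in mature than in young hypocotyls: ATCSLC08 (1.15 ± 0.13), CSLC04 (0.77 ± 0.22) and CSLC5 (0.75 ± 0.17). They are 3 of 5, where 17.5% of all probe sets were higher and 35% called in either direction. The sign is opposite to that of XTH18 and XTH19. Without the low-bioC arrays 1 of the 3 calls was left, that of ATCSLC08 (1.25 ± 0.16), with adjusted p = 0.0632 for CSLC04 and 0.0813 for CSLC5. The mature rise of CSLC12 also lost its call without them (adjusted p = 0.0834) and without replicate 1 of the auxin-treated mature group (adjusted p = 0.055). Without auxin 3 of the 5 were lower in mature than in young hypocotyls and none was higher (CSLC5 −2.06 ± 0.12, CSLC04 −1.51 ± 0.15 and ATCSLC08 −1.19 ± 0.09), where 22.9% of all probe sets were lower.

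The genes most like each member were the 3 with the highest Pearson correlation over the 12 arrays among 13510 other probe sets with 1 gene. For XTH18 these were AT5G44910 (r = 0.991), AT3G57780 (0.990) and AT3G13650 (0.987), each lowest in untreated young and highest in auxin-treated young hypocotyls. For XTH19 they were AT4G22460 (0.987), AT4G16146 (0.984) and AT1G10380 (0.983). Group means of these 3 in auxin-treated young hypocotyls were 1.95 to 2.27, against 4.21 for XTH19, so that the likeness is one of shape and not of size. For XTH32 they were AT4G38690 (0.988), UGT74D1 (0.988), a glucosyltransferase that acts on auxins, and CCS (0.986), the copper chaperone of superoxide dismutase. AT4G38690 spanned a range like that of XTH32, from 3.55 in untreated young to −2.71 in auxin-treated mature hypocotyls. These correlations describe 12 arrays in 4 groups. Over the 8 arrays left without the low-bioC ones they lay between 0.982 and 0.996. None of the 9 genes is shared between members.

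**Figure D4:**
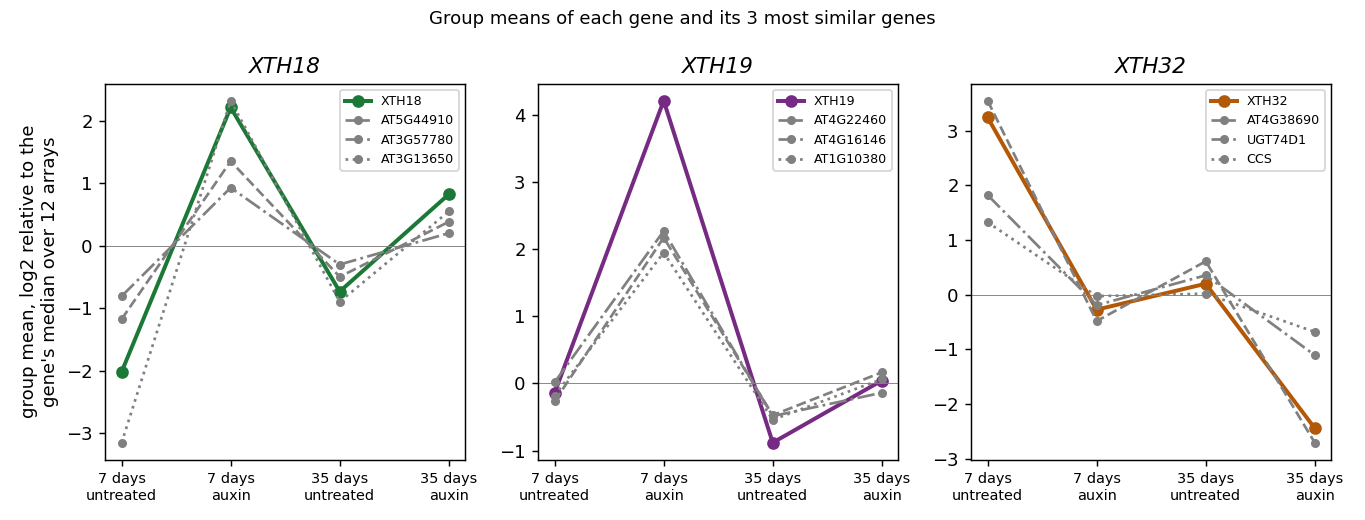
Group means (vertical axis, log2 relative to each gene's own median) of XTH18, XTH19 and XTH32 (coloured) and of the 3 genes most correlated with each (grey) in the 4 groups (horizontal axis). The genes beside XTH18 and XTH32 follow their member's order of groups, whereas AT4G16146 beside XTH19 is higher in untreated 7-day (0.02) than in auxin-treated 35-day hypocotyls (−0.14); AT4G38690 runs from 3.55 to −2.71 beside 3.24 to −2.44 for XTH32.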

How the data were processed

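Arrays of 4 groups of 3 were compared. Per the submitters' processing notes the authors used RMA; the deposited values are on a log scale, read as log2, which RMA gives; base, version and centring step are not given in the sources used here. In the deposited table every row median over the 12 arrays is 0 to 5 decimals. No filter on dim probe sets and no level across genes was therefore possible.

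Groups and replicates came from the sample titles. After 64 control probe sets were left out, 22746 were fitted with limma (version 3.58.1, R version 4.3.3), 1 model with 4 group means on 12 arrays (8 residual degrees of freedom) and empirical Bayes. Tests were two-sided, adjusted by Benjamini-Hochberg over all 22746, and called under 0.05. Age comparisons are mature minus young. Errors are standard errors of the fit unless SD is named. The fit was tested on simulated data. Gene names came from the platform annotation, list loci were matched through RefSeq (TAIR10.1) gene IDs, and its coordinates were used only to find neighbouring genes. The members, lists and tests were chosen with earlier results of these data known. Named genes were the members and the 3 genes most correlated with each member. Named too were up to 3 called rises and 3 called falls per list in the auxin comparisons and their difference. XTH21, XTH26, CSLC12, the markers and the age values of XTH16, XTH33 and the CSLC genes fall outside this rule. They were added after their values were seen, to complete short lists and the family context.

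Deviations of same-numbered replicates correlated above 0.1 in all 3 pairs only between both auxin groups (0.25, 0.16 and 0.12; between both untreated groups 0.22, 0.07 and 0.03), which pairs these arrays by that measure alone. Alternatives were a replicate block, fits of only the groups compared, equal array medians, quantile normalisation of the centred values, and array weights. Others were probe sets with 1 gene only, the arrays without low bioC signal, and each array left out in turn.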

Additional observations from a re-analysis of the deposited data

Results flagged for a closer look

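With all 12 arrays the auxin response of all 3 genes differed between the ages by a test of the difference itself, the mature minus the young response in limma. The difference was −2.67 for XTH18 and −3.43 for XTH19, with smaller mature rises, and 0.87 for XTH32, with a smaller mature fall. The XTH32 difference was less firm. It was 0.74 ± 0.25 without the 4 low-bioC arrays and 0.16 with quantile normalisation of the centred values (adjusted p = 0.613).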

How the results depend on the processing

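Of 282 values of the 3 genes under the alternatives, 266 kept their direction and side of the threshold and 16 kept the direction but lost the call. None reversed, but many could not. The replicate block, fits of only the groups compared and probe sets with 1 gene leave the estimate as it is. So does leaving out an array of a group not compared. These alternatives could change only the call. Of the 16 lost calls, 14 belong to the XTH19 age difference without auxin. It was −0.74 (adjusted p = 0.0955) with only the groups compared in the fit, −0.62 (0.0547) with array weights, −0.33 (0.431) without the 4 low-bioC arrays, and −1.06 to −0.31 with single arrays left out (adjusted p = 0.0051 to 0.21). The XTH32 difference of responses was 0.16 with quantile normalisation and 0.74 without the 4 arrays; the cause was not tested. The XTH18 minus XTH19 shift with auxin in young hypocotyls reversed to 0.12 with quantile normalisation, at the same exact permutation p = 0.8.

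The fit with a replicate block changed no call of the 3 genes and no count among the other XTH and the CSLC genes: XTH19 with age after auxin was −4.17 ± 0.25 (adjusted p = 2.3e-07), and 6462 probe sets were called there instead of 6206. With probe sets of 1 gene only, fewer were tested, and 7334, 7514, 5484, 3226 and 4064 were called for auxin at 7 and at 35 days, for age in untreated and in treated hypocotyls and for the difference of responses, against 13440, 13632, 10386, 6206 and 7962. Without the 4 low-bioC arrays, a fit of fewer samples, 5574 were called for age without auxin and 4336 for the difference of responses. Of the other XTH genes 1 was then called for age without auxin and 2 for the difference of responses, and of the CSLC genes 1 for that difference. Signal over background is unknown in centred values, so dim probe sets could not be told from bright ones.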
